A study of Mus musculus with 30 samples.

Results

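The 33 genes described here encode integrin subunits and the adhesion molecules that leukocytes use with them. They were taken by symbol from the 55414 genes counted in each library, and every listed symbol matched exactly 1 gene. They comprise 23 integrin α and β subunits, 7 immunoglobulin superfamily adhesion molecules, and a last group of 3 with P-selectin, its ligand PSGL-1 and the hyaluronan receptor CD44. Of the 33, 25 had enough reads to be tested among the 15686 genes that passed the filter on low counts, and 8 did not. PolyA-selected RNA was sequenced from macrophages that had been grown in culture from mouse bone marrow. The cells came from transgenic TRα1PV mice and from wild-type (WT) mice. TRα1PV is a mutant thyroid hormone receptor α1 that is known as a dominant-negative receptor with impaired hormone binding. Marrow of both genotypes was cultured for 7 days in medium holding 15 or 20% L929-conditioned medium. Cells were then polarized with lipopolysaccharide and interferon-γ (M1, each at 20 ng/mL), polarized with interleukin-4 (M2, 20 ng/mL), or left unstimulated (M0). Each of the 6 groups had 5 libraries, 30 in all. Not given in the sources used here are the strain, age and sex of the mice, the zygosity of the mutation and how long the stimulation lasted. Read counts per gene do not show which receptor allele a library carries, so the genotype labels were not checked.

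Integrins are paired receptors, an α with a β subunit, that hold a cell to matrix proteins or to counter-receptors on other cells. Leukocytes carry the β2 family in particular, whose ligands include the ICAM proteins and complement fragments, and α4 integrins that bind VCAM-1, fibronectin and MAdCAM-1. Selectins and their ligands catch leukocytes from flowing blood, and the integrins then arrest them and let them cross the vessel wall.

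Libraries held 23015952 to 59086252 reads in genes, and all 9 macrophage markers of a list (among them Adgre1, Csf1r and Cd68) averaged at least 10 CPM in every group. CPM scale the read counts of every library to a common total, here with TMM-adjusted library sizes. WT M0 replicate 2 stood apart from the other WT M0 libraries. Its share of mitochondrial reads was 4.56%, against 0.921 to 2.07% in the other 4, and its share of reads outside genes was 13.9%, against 9.42 to 11.7%. The share outside genes was 11.7 to 14.4% in TRα1PV M0 libraries and 9.42 to 13.9% in WT M0 libraries, and a fit with this share added as a covariate was run beside the main one. For the tested integrin and adhesion genes, M0 genotype effects and differences from them are therefore given with and without replicate 2. This holds where they were called or are described by library. The M0 effects of genes named from the lists of genes that act with integrins are given in the same way. The polarization calls in WT are given as counts with and without that library. Calls of cell-type markers in M0 are given with all libraries only, and whether they hold without replicate 2 was not tested. The labels name biological replicates but no separate mice, so p-values measure the spread between these libraries. In bulk RNA, fewer cells of a type and less RNA per cell cannot be told apart. The 5 values listed for a group stand in the order of replicates 1 to 5. Log2 fold changes are given ± SE, and adjusted p-values are from edgeR's quasi-likelihood test with Benjamini-Hochberg adjustment over all 15686 genes (5 libraries per group). A gene is said to be called, or to have changed, at an adjusted p under 0.05.

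To compare levels between genes, CPM were divided by exon length. In TRα1PV M0 macrophages the β2 subunit Itgb2 had the highest mean level of the 33, at 192 ± 8.41 CPM per kb (SD, n = 5), followed by the β1 subunit Itgb1 at 145 ± 14.0 CPM per kb. In WT M0 macrophages Itgb2 averaged 266 ± 30.3 and Itgb1 132 ± 25.9 CPM per kb, and in neither genotype did the libraries of these neighbours overlap. Below them, the vitronectin receptor subunit Itgb5 and Cd44 overlapped in both genotypes, at 68.9 and 64.1 CPM per kb in TRα1PV M0 and at 67.4 and 59.0 CPM per kb in WT M0. In TRα1PV M0 the next level was that of Itga4, 55.4 CPM per kb, then Selplg with 49.1. In WT M0 Selplg with 50.9 CPM per kb stood before Itga4 with 45.7, and in both genotypes these neighbours overlapped. The order was different in M1, where Itgb2 reached 501 CPM per kb in TRα1PV cells and the fibronectin receptor subunit Itga5 came next with 190, overlapping Itgb1 with 140.

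**Figure D1:**
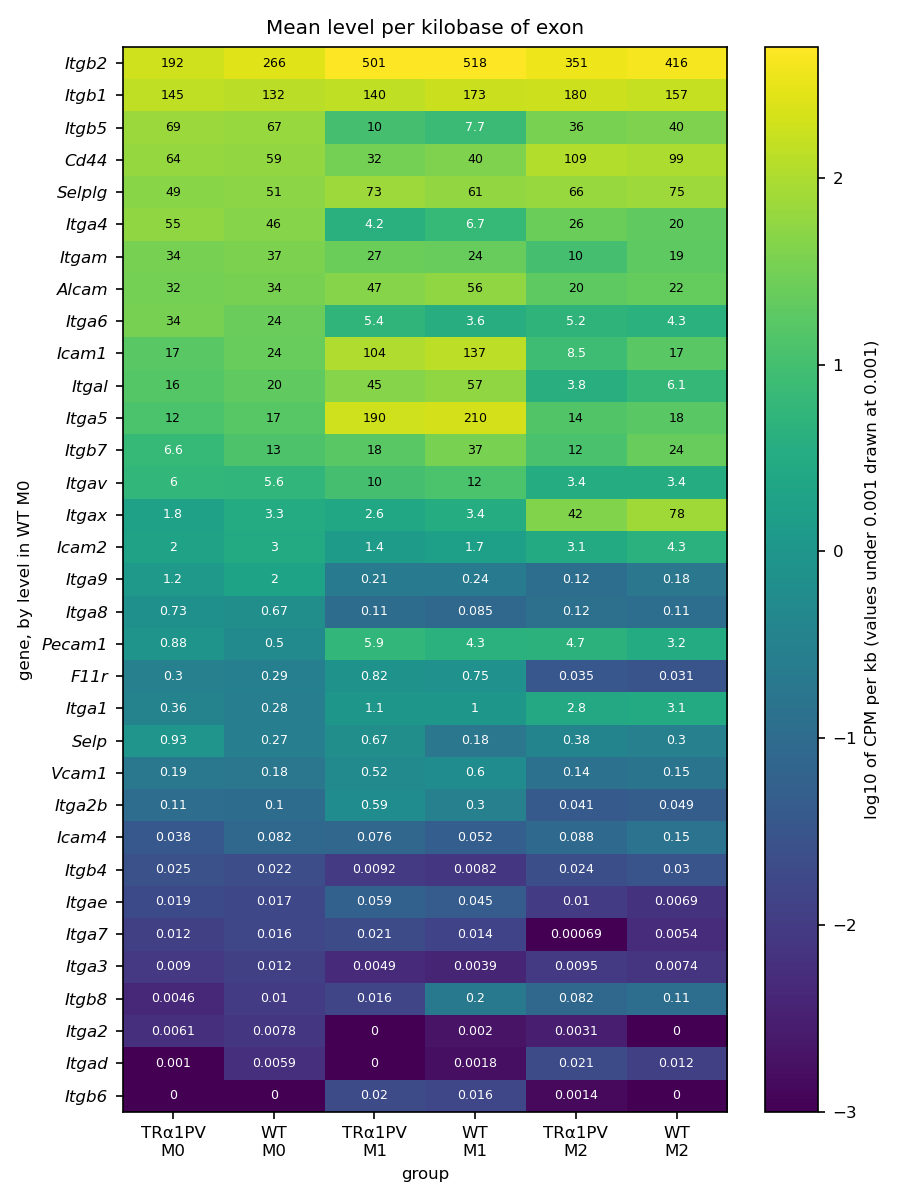
Mean level of the 33 genes in CPM per kilobase of exon (5 libraries per group), as colour on a log10 scale and as printed values, with genes down the page by their level in WT M0 and TRα1PV left of WT in each state. Itgb2 is at the top in all 6 groups, and the 8 genes that were not tested lie among the rows at the bottom.

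The 8 genes without a test had few reads in all 30 libraries together. They were Itgad (34 reads), Itga2 (26), Itgb6 (38), Itga3 (52), Icam4 (92), Itga7 (98), Itgae (120) and Itgb4 (163). Their highest value in any library was 0.442 CPM, for Itgb4. Itgb6, whose product pairs with αv mainly in epithelia, had 20 reads in the TRα1PV M1 libraries together and 16 in the WT M1 libraries, and no read in M0 of either genotype, which allows up to 3 reads over a group. Levels of these genes were therefore not compared.

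Between genotypes, Itgal, Itgb7 and Icam1 were lower and Itga6 and Pecam1 higher in TRα1PV macrophages in all 3 states, and the other calls were made in M0, M1 or M2 in part. In M0, 11 of 25 were called in TRα1PV against WT (3 higher and 8 lower), where 26.0% of all tested genes were called. In M1 it was 15 of 25 (6 higher and 9 lower), beside 20.0% of all genes, and in M2 10 of 25 (2 higher and 8 lower), beside 13.1%. In each state the lower calls were the more frequent among them. Over all genes lower calls were also the more frequent, though by less. There 12.0% were higher and 14.0% lower in M0, 9.74% and 10.2% in M1, and 6.14% and 6.96% in M2. The median log2 fold change of the 25 was 0.03 in M0, -0.18 in M1 and -0.18 in M2, beside -0.01, 0.00 and -0.01 over all genes. The libraries of the genotypes did not overlap for 6 genes in M0, 6 in M1 and 8 in M2, where 12.5%, 11.6% and 13.8% of all genes did not.

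**Figure D2:**
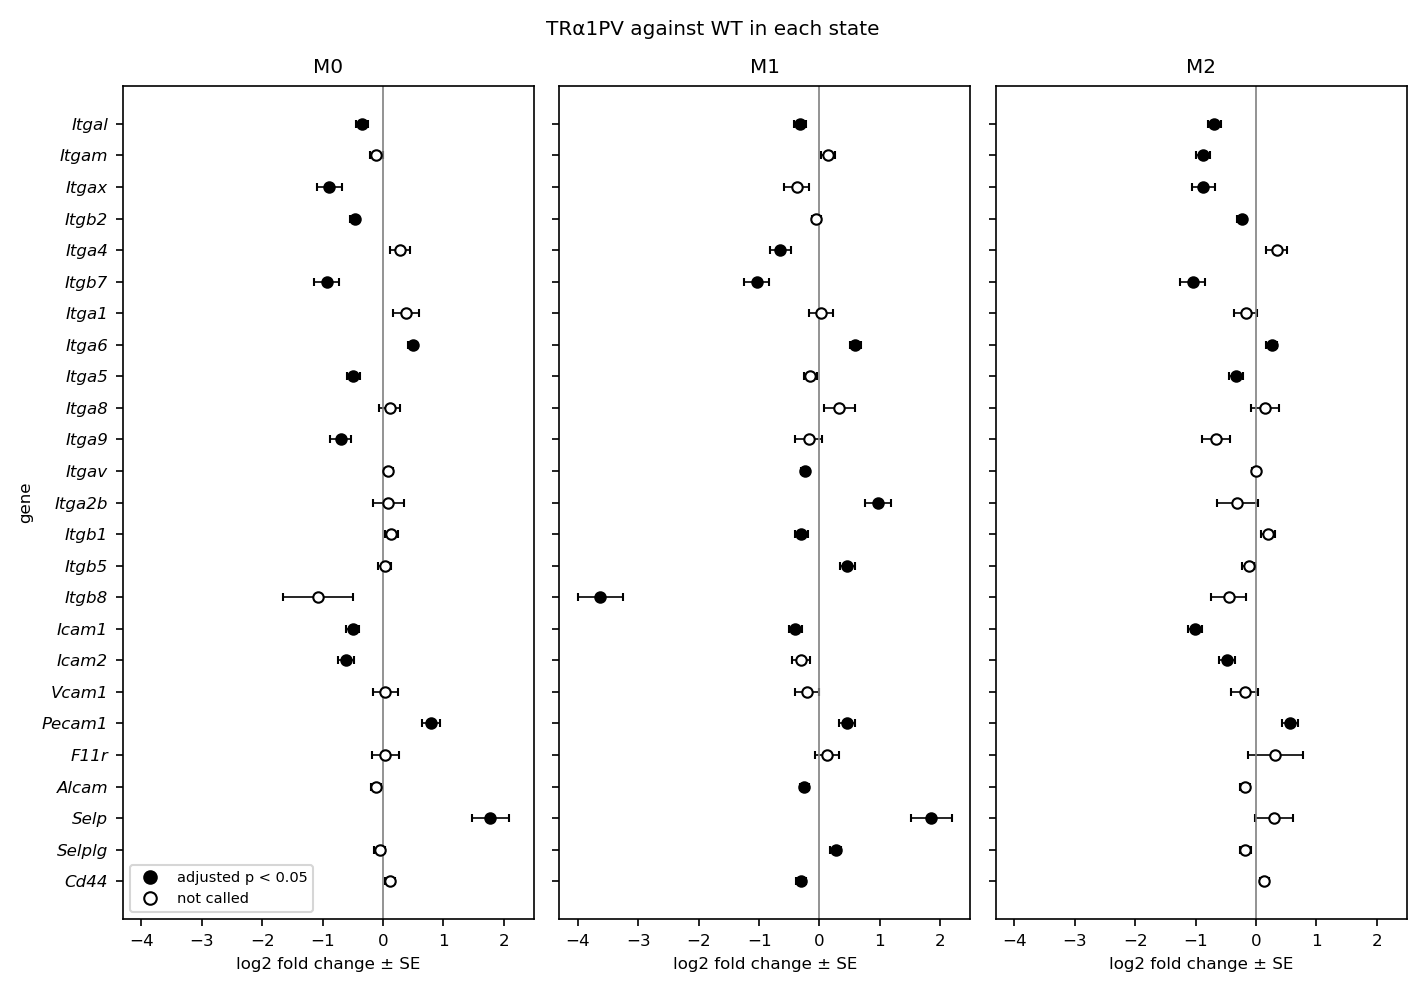
Log2 fold change (± SE) of TRα1PV against WT for the 25 tested genes in M0, M1 and M2, with filled points for an adjusted p under 0.05 and open points for genes that were not called. Itgal, Itgb7 and Icam1 lie left of zero and Itga6 and Pecam1 right of it with filled points in all 3 states, and the point farthest from zero is Itgb8 in M1 (-3.63).

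Beside the 5 genes called in the same direction in all 3 states, Itgb2, Itgax, Itga5 and Icam2 were lower in both M0 and M2, and Selp was higher in both M0 and M1. A further 9 were called in M1 only (Itga4, Itgav, Itga2b, Itgb1, Itgb5, Itgb8, Alcam, Selplg and Cd44), Itga9 in M0 only and Itgam in M2 only. Itga1, Itga8, Vcam1 and F11r were called in no state, and with all libraries no gene was called in opposite directions in different states. Without WT M0 replicate 2, Itga4 and Itgb1 were called higher in M0 (0.49 and 0.25), opposite to their M1 calls (-0.65 and -0.30).

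The M0 count rose to 13 without WT M0 replicate 2, and the 11 genes called with it were all among these 13. The 2 added were Itga4 (0.49, adjusted p = 0.0135) and Itgb1 (0.25, adjusted p = 0.0423). Over all genes the M0 count rose as well without that library, from 4072 to 6131. With the share outside genes as a covariate, Itgal (-0.23, adjusted p = 0.124) and Itgax (-0.48, adjusted p = 0.0657) were not called in M0. In M2 the count fell to 6 without WT M2 replicate 1. Over all genes, leaving out 1 library at a time gave 1275 to 2723 calls in M2 (2055 with all libraries). The count for that replicate alone is not given here. With the covariate, Itgb2 (-0.16, adjusted p = 0.0908), Itga5 (-0.21, adjusted p = 0.133) and Itga6 (0.24, adjusted p = 0.0840) were not called in M2. These 3 M2 calls were also lost with no filter on low counts (adjusted p 0.0547 to 0.0704), Itga6 with limma-voom (adjusted p = 0.0504), and the M1 call of Selplg with no filter (adjusted p = 0.0596) or in a fit of the compared groups alone (adjusted p = 0.0568).

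Several of the smaller differences rested on particular libraries. In M1, the call of Itgal was lost without TRα1PV M1 replicate 2 or 3 or WT M1 replicate 2 or 5 (adjusted p 0.0559 to 0.0959), and that of Itgav without TRα1PV M1 replicate 3 or WT M1 replicate 3 or 4 (0.0550 to 0.0668). The M1 call of Alcam was lost without TRα1PV M1 replicate 2, 3 or 4 or WT M1 replicate 3 or 5 (adjusted p 0.0505 to 0.0956). The M1 call of Itgb1 was lost without TRα1PV M1 replicate 1, 2 or 3 or WT M1 replicate 3, 4 or 5 (0.0595 to 0.133), and that of Selplg without TRα1PV M1 replicate 1 or 3 or WT M1 replicate 2 or 3 (0.0732 to 0.111). In M2, Icam2 was not called without WT M2 replicate 1 (adjusted p = 0.0523), and Itga6 was not called without TRα1PV M2 replicate 4 or 5 or WT M2 replicate 1, 2, 3 or 5 (0.0741 to 0.157). The M2 call of Itga5 was lost without TRα1PV M2 replicate 2, 3 or 5 or WT M2 replicate 1, 2, 3 or 5 (adjusted p 0.0501 to 0.113), and that of Itgb2 without TRα1PV M2 replicate 2, 3, 4 or 5 or WT M2 replicate 1, 2, 3 or 5 (0.0505 to 0.0875).

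The β2 family was lower in TRα1PV macrophages where it was called. Itgb2 encodes the β subunit shared by all of this family. In M0 it stood at 614, 609, 551, 580 and 578 CPM in the TRα1PV libraries and 913, 692, 824, 887 and 750 CPM in the WT libraries. Every TRα1PV library was below every WT library, with a log2 fold change of -0.47 ± 0.08, adjusted p = 2.99e-05 (-0.52 without WT M0 replicate 2). In M1 the values overlapped, at 1650, 1480, 1610, 1470 and 1430 CPM in the TRα1PV libraries and 1590, 1710, 1580, 1320 and 1690 CPM in the WT libraries (-0.05 ± 0.08, adjusted p = 0.708). In M2 Itgb2 had 1200, 1070, 1010, 1080 and 1000 CPM in the TRα1PV libraries and 1360, 1260, 1290, 1150 and 1300 CPM in the WT libraries, and the highest TRα1PV library reached into the WT range (-0.24 ± 0.08, adjusted p = 0.0309). The difference between the M1 and the M0 genotype effect was itself called, at 0.42 ± 0.11, adjusted p = 0.00479 (0.48 without WT M0 replicate 2), and the M0 effect was thus the larger fall.

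Itgal encodes αL, which forms LFA-1 with β2 and binds ICAM proteins. Its M0 values were 115, 97.5, 89.4, 102 and 109 CPM in the TRα1PV libraries and 132, 112, 134, 137 and 140 CPM in the WT libraries, with only WT M0 replicate 2 inside the TRα1PV range (-0.35 ± 0.10, adjusted p = 0.0123, and -0.40 without that library). In M1 it read 341, 232, 279, 290 and 348 CPM in the TRα1PV libraries and 367, 386, 347, 326 and 435 CPM in the WT libraries, again with overlap (-0.32 ± 0.10, adjusted p = 0.0271). The widest gap was in M2, where Itgal had 28.1, 22.4, 20.0, 28.9 and 25.3 CPM in the TRα1PV libraries and 37.1, 36.8, 39.5, 40.5 and 46.7 CPM in the WT libraries. There all 5 TRα1PV libraries were lower than all 5 WT libraries (-0.69 ± 0.11, adjusted p = 5.28e-05). Whether the M2 effect exceeded the M0 effect did not pass the test (-0.33 ± 0.15, adjusted p = 0.360, and -0.27 without WT M0 replicate 2).

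Itgam encodes αM (CD11b), which with β2 forms complement receptor 3 and binds the fragment iC3b. Its M0 values overlapped between genotypes, at 191, 170, 187, 156 and 147 CPM in the TRα1PV libraries and 183, 245, 181, 143 and 171 CPM in the WT libraries (-0.11 ± 0.11, adjusted p = 0.484, and 0.01 without WT M0 replicate 2). Those of M1 did too, at 147, 135, 120, 146 and 127 CPM in the TRα1PV libraries and 105, 126, 133, 123 and 124 CPM in the WT libraries (0.14 ± 0.11, adjusted p = 0.396). In M2 every TRα1PV library was below every WT library, at 58.1, 57.5, 53.9, 48.2 and 41.1 CPM in the TRα1PV libraries and 106, 95.3, 103, 96.4 and 75.8 CPM in the WT libraries (-0.88 ± 0.11, adjusted p = 2.41e-06). Itgam was the only gene of the 25 whose M2 genotype effect was called as different from that in M0 (-0.77 ± 0.16, adjusted p = 0.00543, and -0.88 without WT M0 replicate 2), and this call held in each alternative run (adjusted p 0.000412 to 0.0214). Itgam shares 3450 of its 5024 exon bases with the same-strand model Gm49368, to which 40 reads were given against 139933 for Itgam, and reads in the shared bases can be left out of both counts.

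Itgax encodes αX (CD11c), the β2 partner that also marks dendritic cells and some tissue macrophages. In M0 it had 11.8, 5.98, 7.81, 6.79 and 10.5 CPM in the TRα1PV libraries and 27.9, 10.4, 14.2, 13.8 and 12.8 CPM in the WT libraries. WT M0 replicate 1 was far above the other WT libraries, and the lowest WT library was inside the TRα1PV range (-0.89 ± 0.21, adjusted p = 0.00193, and -1.0 without WT M0 replicate 2). In M1 the values were 13.8, 13.2, 12.2, 7.93 and 15.7 CPM in the TRα1PV libraries and 19.5, 19.0, 15.4, 12.5 and 15.4 CPM in the WT libraries, and they overlapped (-0.38 ± 0.21, adjusted p = 0.203). In M2 Itgax stood at 245, 196, 190, 191 and 194 CPM in the TRα1PV libraries and 417, 406, 373, 314 and 355 CPM in the WT libraries. The highest TRα1PV library, replicate 1, was below the lowest WT library (-0.87 ± 0.19, adjusted p = 0.00213). Granulocytes also carry αL, αM and β2. Their markers (10 of 12 tested) summed to 182 to 369 CPM in TRα1PV M0 and 119 to 270 in WT M0, to 7.41 to 13.0 and 12.0 to 27.6 in M1, and to 103 to 234 and 85.9 to 154 in M2. These sums hold 1 marker that ran against the rest, the neutrophil collagenase gene Mmp8, which was lower in TRα1PV in every state (means of 3.39 CPM in TRα1PV and 76.8 CPM in WT at M0, 1.89 and 15.0 in M1, and 6.71 and 63.2 in M2). The other 9 tested markers were all called higher in TRα1PV in M0, as were 6 of them in M2 and 1, Ngp, in M1. Without Mmp8, left out after its values were seen, the list summed to 178 to 365 CPM in TRα1PV M0 and 48.4 to 210 in WT M0, to 5.68 to 11.3 and 3.48 to 5.29 in M1, and to 98.4 to 228 and 28.6 to 92.8 in M2. The part of these cells in the β2 family values was not tested. The 8 dendritic cell markers summed to at most 2.83 CPM in any M0 or M2 library.

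In the polarization comparisons, Itgb2 rose in both states and its α partners parted. With M1, Itgb2 rose by 1.38 (log2) in TRα1PV and 0.96 in WT, and with M2 by 0.87 and 0.64. Itgal rose with M1 by 1.54 in TRα1PV and 1.50 in WT and fell with M2 (-2.04 and -1.71). Itgam fell with M2 (-1.72 in TRα1PV and -0.95 in WT), and less with M1 (-0.34 ± 0.11, adjusted p = 0.00758 in TRα1PV; -0.59 ± 0.11, adjusted p = 2.21e-05 in WT). Itgax was the gene with the largest rise among the 25 in M2, to a mean of 203 CPM in TRα1PV M2 against 8.58 in M0, and 373 CPM in WT M2 against 15.8 in M0 (4.57 ± 0.22, adjusted p = 4.87e-17 in TRα1PV; 4.56 ± 0.22, adjusted p = 5.91e-17 in WT). In M1 Itgax was called in TRα1PV (0.56 ± 0.21, adjusted p = 0.0161) but not in WT (0.05 ± 0.20, adjusted p = 0.818), and the difference was not called (0.51 ± 0.29, adjusted p = 0.202, and 0.63 without WT M0 replicate 2). That TRα1PV call was lost without TRα1PV M1 replicate 5 (0.46, adjusted p = 0.0574) and turned to -0.03 (adjusted p = 0.920) with the share outside genes as a covariate. The M1 fall of Itgam in TRα1PV was also lost with that covariate (-0.11, adjusted p = 0.430).

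**Figure D3:**
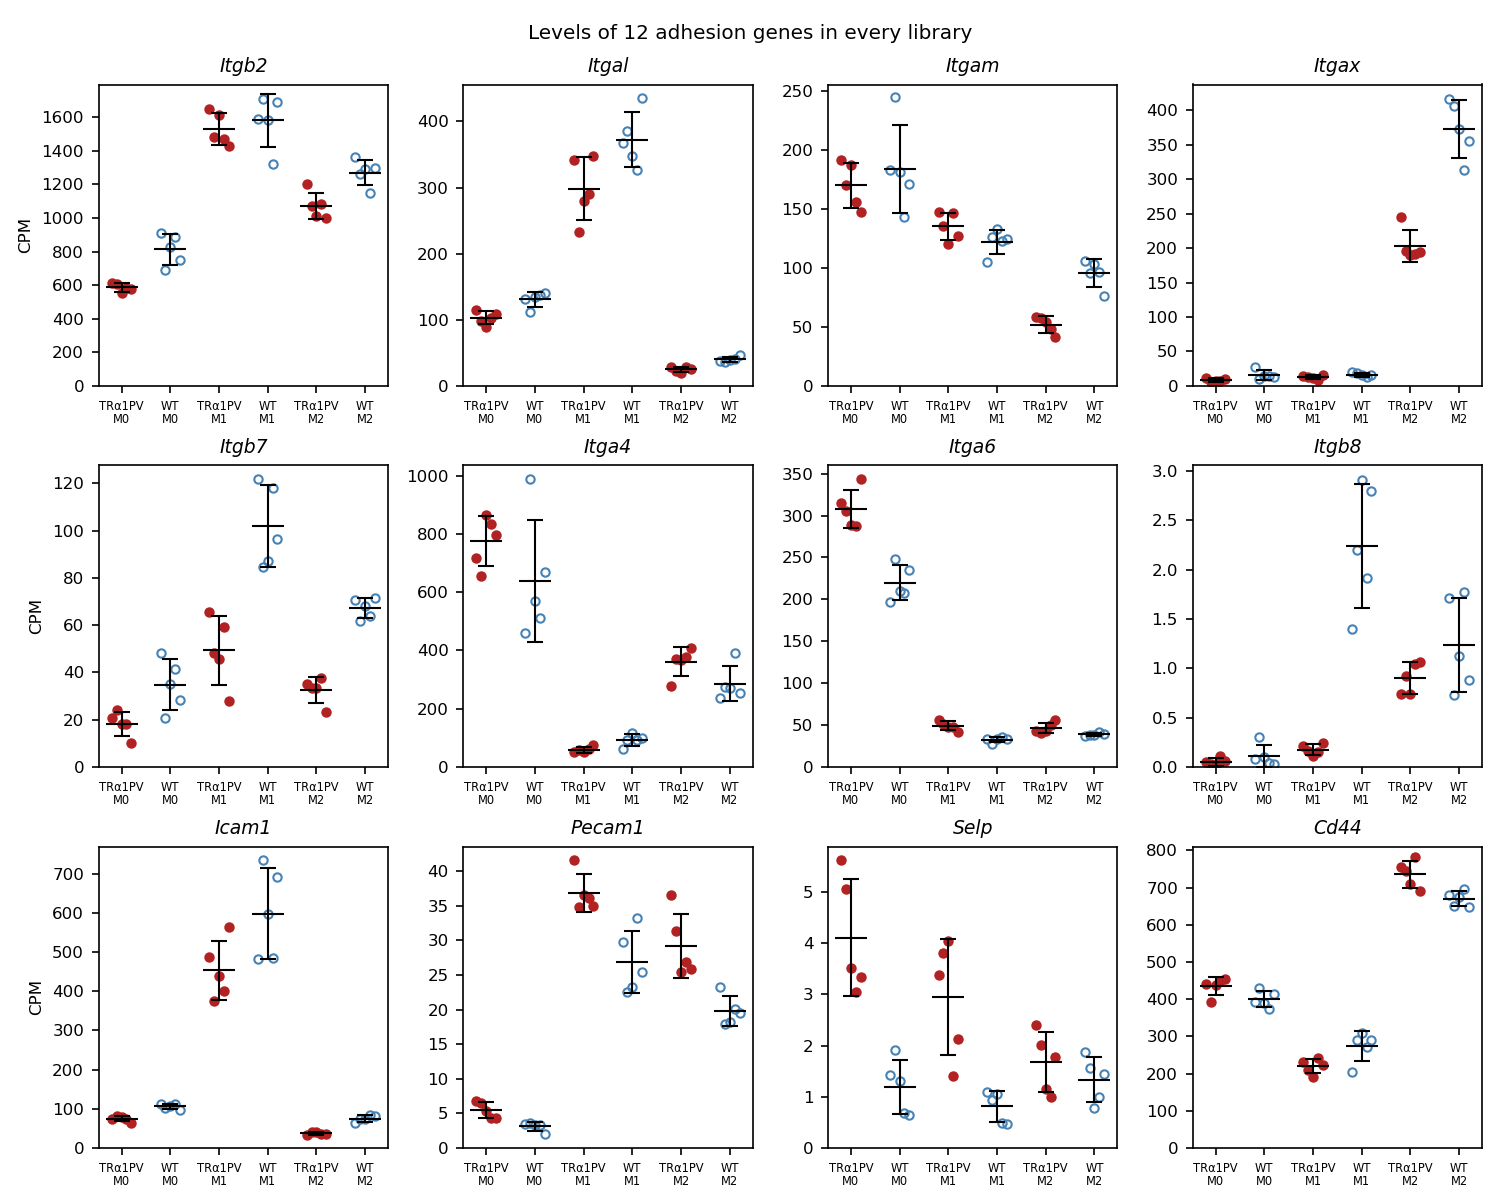
CPM of 12 of the genes in each of the 30 libraries (linear axes from 0), with TRα1PV (filled) left of WT (open) in M0, M1 and M2 and bars for the mean ± SD of 5 libraries. Itgal, Itgam, Itgax, Itgb7, Icam1 and Pecam1 do not overlap between genotypes in M2, Itgb8 separates them in M1, and Selp separates them in M0 and M1.

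Among the genes of the α4β7 group, the β7 subunit was lower in TRα1PV macrophages in every state. Itgb7 pairs with α4 for binding of MAdCAM-1 and with αE for binding of E-cadherin. In M0 it had 20.8, 24.1, 18.0, 18.3 and 10.0 CPM in the TRα1PV libraries and 48.3, 20.7, 35.3, 41.3 and 28.4 CPM in the WT libraries. WT M0 replicate 2 lay within the TRα1PV range and the other WT libraries lay above it (-0.93 ± 0.21, adjusted p = 0.00142, and -1.07 without that library). In M1 Itgb7 stood at 65.4, 48.2, 45.7, 59.2 and 27.8 CPM in the TRα1PV libraries and 122, 84.8, 87.1, 118 and 96.3 CPM in the WT libraries, with no overlap (-1.04 ± 0.21, adjusted p = 0.000518). The M2 values were 35.3, 33.2, 33.2, 37.5 and 23.2 CPM in the TRα1PV libraries and 70.5, 61.6, 68.1, 63.8 and 71.3 CPM in the WT libraries, again with no overlap (-1.05 ± 0.21, adjusted p = 0.000826). Neither difference between states was called (-0.11 and -0.12, adjusted p = 0.806 and 0.971, and 0.02 and 0.03 without WT M0 replicate 2). Itgb7 rose with M1 by 1.43 in TRα1PV and 1.55 in WT, and with M2 by 0.83 and 0.95.

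Itga4 encodes α4, which with β1 binds VCAM-1 and fibronectin. In M0 it had 719, 657, 866, 835 and 797 CPM in the TRα1PV libraries and 461, 988, 570, 511 and 668 CPM in the WT libraries. The WT value of 988 CPM is from replicate 2, above every other library, and the remaining 4 WT libraries overlapped the TRα1PV range only through 668 CPM. The M0 log2 fold change was 0.28 ± 0.17, adjusted p = 0.234 with all libraries and 0.49 (adjusted p = 0.0135) without that library. In M1 Itga4 was lower in TRα1PV, at 51.5, 57.3, 50.2, 60.6 and 76.2 CPM in the TRα1PV libraries and 62.1, 91.5, 118, 93.4 and 100 CPM in the WT libraries, where 1 WT library lay inside the TRα1PV range (-0.65 ± 0.17, adjusted p = 0.00806). In M2 the values were 279, 372, 368, 378 and 410 CPM in the TRα1PV libraries and 237, 275, 270, 392 and 255 CPM in the WT libraries and overlapped (0.34 ± 0.17, adjusted p = 0.182). The M1 effect differed from the M0 effect (-0.93 ± 0.24, adjusted p = 0.00618, and -1.14 without WT M0 replicate 2). Itga4 had the largest fall with M1 among the 25 in TRα1PV, to a mean of 59.2 CPM in M1 against 775 in M0 (-3.71 ± 0.19, adjusted p = 2.3e-17), and fell to 93.1 CPM in WT M1 against 639 in M0 (-2.78 ± 0.18, adjusted p = 1.14e-14). With M2 it fell (-1.10 in TRα1PV and -1.16 in WT). It shares 1124 of 13978 exon bases with Cerkl on the opposite strand, and whether reads were counted by strand is not stated in the sources used here.

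Of the α subunits for laminin and collagen, the laminin receptor subunit Itga6 was higher in TRα1PV macrophages in each state. In M0 Itga6 stood at 315, 305, 289, 288 and 344 CPM in the TRα1PV libraries and 197, 248, 210, 208 and 235 CPM in the WT libraries, and all TRα1PV libraries were above all WT libraries (0.49 ± 0.08, adjusted p = 6.56e-05, and 0.54 without WT M0 replicate 2). The M1 values did not overlap either, at 56.1, 51.8, 47.7, 47.9 and 42.1 CPM in the TRα1PV libraries and 32.9, 27.8, 32.8, 36.0 and 33.4 CPM in the WT libraries (0.59 ± 0.09, adjusted p = 1.41e-05). In M2 they were 43.3, 40.4, 43.2, 49.6 and 56.2 CPM in the TRα1PV libraries and 37.5, 37.9, 37.8, 41.9 and 39.7 CPM in the WT libraries, and they overlapped (0.26 ± 0.09, adjusted p = 0.0430). This M2 call was kept in only 8 of 17 alternative runs. Itga6 was low in both polarized states. It fell with M1 (-2.65 in TRα1PV and -2.75 in WT) and with M2 (-2.72 and -2.50).

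Itga1, a collagen receptor subunit, ran the other way with polarization. In M0 it stood at 9.09, 6.53, 8.87, 6.15 and 2.72 CPM in the TRα1PV libraries and 7.68, 5.38, 4.71, 4.07 and 4.02 CPM in the WT libraries. In M1 it had 21.6, 17.6, 19.5, 23.7 and 16.5 CPM in the TRα1PV libraries and 23.1, 17.4, 17.0, 22.3 and 16.7 CPM in the WT libraries. In M2 the values were 61.0, 57.5, 56.0, 47.9 and 35.2 CPM in the TRα1PV libraries and 65.9, 56.0, 53.8, 58.6 and 55.0 CPM in the WT libraries, the highest of the 3 states. The genotypes overlapped in each state, and none of the comparisons between them was called (log2 fold changes 0.38, 0.03 and -0.17, that of M0 being 0.41 without WT M0 replicate 2). The M0 value was called without TRα1PV M0 replicate 5, the lowest of its group (0.57, adjusted p = 0.0182). Itga1 rose in M2 by 2.93 in TRα1PV and 3.49 in WT, and in M1 by 1.55 and 1.90.

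Among α subunits for fibronectin, vitronectin and related ligands, Itga5 had the largest rise with M1. Itga5 encodes the α chain of the classical fibronectin receptor. In M0 it had 60.3, 61.8, 55.9, 62.7 and 58.0 CPM in the TRα1PV libraries and 95.1, 58.0, 84.9, 98.3 and 82.9 CPM in the WT libraries. WT M0 replicate 2 was within the TRα1PV range and the other WT libraries were above it (-0.49 ± 0.11, adjusted p = 0.00110, and -0.59 without that library). In M1 it stood at 1130, 759, 898, 973 and 920 CPM in the TRα1PV libraries and 983, 1040, 956, 977 and 1240 CPM in the WT libraries, with overlap (-0.15 ± 0.11, adjusted p = 0.339). In M2 the genotypes did not overlap, at 75.5, 64.9, 61.5, 75.5 and 70.7 CPM in the TRα1PV libraries and 93.0, 82.5, 90.2, 78.8 and 92.7 CPM in the WT libraries (-0.33 ± 0.11, adjusted p = 0.0396). With M1 it rose to a mean of 936 CPM in TRα1PV M1 against 59.7 in M0 and to 1040 CPM in WT M1 against 83.8 in M0 (3.97 ± 0.12, adjusted p = 3.38e-23 in TRα1PV; 3.63 ± 0.12, adjusted p = 2.15e-22 in WT). The difference of the M1 from the M0 genotype effect was not called with all libraries (0.34 ± 0.15, adjusted p = 0.0904). It was called without WT M0 replicate 2 (0.45, adjusted p = 0.00507), TRα1PV M1 replicate 2 (0.41, adjusted p = 0.0409) or WT M1 replicate 5 (0.41, adjusted p = 0.0430). In M2 Itga5 was not called against M0 (0.22 ± 0.11, adjusted p = 0.0769 in TRα1PV; 0.06 ± 0.11, adjusted p = 0.661 in WT). In TRα1PV the M2 value passed without TRα1PV M2 replicate 3 (0.27, adjusted p = 0.0408) and in a fit of the compared groups alone (adjusted p = 0.00481). It also passed without both M0 libraries numbered 2 (0.24, adjusted p = 0.0247).

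Itga9 encodes the α subunit of a receptor for tenascin-C and other ligands. It was lower in TRα1PV M0 macrophages, at 10.4, 10.2, 8.44, 7.50 and 11 CPM in the TRα1PV libraries and 19.9, 11.8, 13.3, 17.6 and 14.5 CPM in the WT libraries, with no overlap (-0.70 ± 0.17, adjusted p = 0.00267, and -0.78 without WT M0 replicate 2). In M1 its values overlapped, at 2.08, 1.57, 1.54, 1.10 and 1.79 CPM in the TRα1PV libraries and 2.39, 1.30, 1.44, 2.54 and 1.50 CPM in the WT libraries (-0.18 ± 0.22, adjusted p = 0.591). They overlapped in M2 as well, at 0.737, 0.926, 0.651, 0.853 and 1.31 CPM in the TRα1PV libraries and 1.71, 1.42, 1.36, 1.62 and 0.993 CPM in the WT libraries (-0.66 ± 0.23, adjusted p = 0.0511). The M2 value passed with RLE size factors, DESeq2, the compared groups alone or the replicate number as a block (adjusted p 0.0230 to 0.0492), and without TRα1PV M2 replicate 5 (-0.83, adjusted p = 0.0218) or WT M2 replicate 5 (-0.77, adjusted p = 0.0347). Itga9 had the largest fall of the 25 in M2 (-3.39 in TRα1PV and -3.43 in WT), and it fell in M1 too (-2.55 and -3.06).

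Itga8, whose product binds nephronectin and fibronectin, was called in no genotype comparison (log2 fold changes 0.11 in M0, or 0.20 without WT M0 replicate 2, 0.33 in M1 and 0.15 in M2). In M0 it stood at 5.33, 5.79, 5.11, 4.81 and 5.71 CPM in the TRα1PV libraries and 5.30, 6.13, 4.62, 5.02 and 3.71 CPM in the WT libraries, and in M1 at 0.825, 0.904, 0.930, 0.604 and 0.648 CPM in the TRα1PV libraries and 0.342, 0.969, 0.548, 0.671 and 0.592 CPM in the WT libraries. In M2 the values were 0.900, 1.09, 0.947, 0.929 and 0.742 CPM in the TRα1PV libraries and 1.19, 0.755, 0.579, 1.20 and 0.403 CPM in the WT libraries, so that every polarized library was below every M0 library. It fell with M1 (-2.77 in TRα1PV and -2.99 in WT), and with M2 (-2.53 and -2.57).

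Itgav encodes αv, the partner of several β subunits in receptors for vitronectin and latent TGF-β. In M1 it had 109, 106, 106, 119 and 126 CPM in the TRα1PV libraries and 123, 121, 147, 145 and 131 CPM in the WT libraries, with WT M1 replicates 1 and 2 inside the TRα1PV range and the other 3 WT libraries above it (-0.24 ± 0.07, adjusted p = 0.0173). It was not called in M0, with 60.1, 58.2, 65.0, 70.0 and 66.1 CPM in the TRα1PV libraries and 58.7, 63.6, 58.1, 57.1 and 62.3 CPM in the WT libraries (0.09 ± 0.07, adjusted p = 0.353, and 0.12 without WT M0 replicate 2), or in M2, where it averaged 36.8 ± 2.35 CPM in TRα1PV and 36.9 ± 3.49 CPM in WT (SD, n = 5 each; 0.00 ± 0.07, adjusted p = 0.993). The M1 effect differed from the M0 effect (-0.33 ± 0.10, adjusted p = 0.0163, and -0.35 without WT M0 replicate 2). Itgav rose with M1 by 0.83 in TRα1PV and 1.15 in WT and fell with M2 (-0.80 and -0.70).

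Itga2b encodes αIIb, the fibrinogen receptor subunit of platelets and megakaryocytes. In M1 it had 3.26, 3.58, 4.08, 2.53 and 2.56 CPM in the TRα1PV libraries and 1.88, 1.49, 1.51, 2.22 and 1.03 CPM in the WT libraries, and all TRα1PV libraries were above all WT libraries (0.97 ± 0.22, adjusted p = 0.00222). Its M0 levels were low, with 0.630, 0.603, 0.812, 0.414 and 0.555 CPM in the TRα1PV libraries and 0.765, 0.485, 0.319, 0.597 and 0.706 CPM in the WT libraries (0.09 ± 0.26, adjusted p = 0.833, and 0.04 without WT M0 replicate 2), and at most 0.469 CPM in M2 (-0.31 ± 0.34, adjusted p = 0.564). The difference of the M1 from the M0 effect was 0.88 ± 0.34, adjusted p = 0.0534 (and 0.93 without WT M0 replicate 2). It passed with the replicate block (adjusted p = 0.0431), with DESeq2 (adjusted p = 0.0384) and without any 1 of TRα1PV M0 replicate 3, TRα1PV M1 replicates 4 and 5, WT M0 replicates 2 and 3, and WT M1 replicates 1 and 4 (0.93 to 1.04, adjusted p 0.0250 to 0.0459). Itga2b rose with M1 by 2.39 in TRα1PV and 1.51 in WT and fell with M2 (-1.44 and -1.04).

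Among the remaining β subunits, Itgb8 showed the largest genotype difference of the 25 genes. Its product pairs with αv and activates latent TGF-β. In M1 it had 0.215, 0.157, 0.107, 0.151 and 0.247 CPM in the TRα1PV libraries and 1.40, 2.20, 2.91, 1.91 and 2.80 CPM in the WT libraries, so that every TRα1PV library was below every WT library (-3.63 ± 0.37, adjusted p = 5.04e-08). These values rest on 25 reads in the TRα1PV M1 libraries together and 310 in the WT M1 libraries. In M0 Itgb8 was near the limit of detection, with 13 reads over the TRα1PV libraries and 22 over the WT libraries, and in M2 it had 0.737, 0.926, 0.740, 1.04 and 1.06 CPM in the TRα1PV libraries and 1.71, 0.726, 1.12, 1.77 and 0.886 CPM in the WT libraries with overlap (-1.08 ± 0.58, adjusted p = 0.171 in M0, and -0.30 without WT M0 replicate 2; -0.45 ± 0.29, adjusted p = 0.291 in M2). The M1 effect differed from the M0 effect (-2.55 ± 0.78, adjusted p = 0.0162). That call was lost without TRα1PV M0 replicate 4 (-1.93, adjusted p = 0.148), and the value was -3.33 (adjusted p = 0.00116) without WT M0 replicate 2. Itgb8 rose with M1 by 1.71 in TRα1PV (2.34 without TRα1PV M0 replicate 4) and by 4.26 in WT (5.05 without WT M0 replicate 2). With M2 it rose by 4.04 in TRα1PV (4.67 without TRα1PV M0 replicate 4) and 3.41 in WT (4.19 without WT M0 replicate 2). Dendritic cell markers moved with the M1 difference. All 8 of the list were tested, they summed to 41.0 to 98.6 CPM in TRα1PV M1 and 116 to 182 CPM in WT M1, and the sum was mostly Ccr7 (mean 65.0 and 136 CPM), which activated macrophages are also known to express. Beside Ccr7, Xcr1 (0.689 CPM in TRα1PV M1 and 1.55 in WT M1) and Zbtb46 (0.518 and 1.05 CPM) were called lower, and Clec9a had 2.91 and 4.43 CPM and was not called (adjusted p = 0.0908). Flt3, Fscn1 and Cd209a were not called in M1, and Siglech had no read in M1 of either genotype. The part of these cells in the Itgb8, Itgb7 and Itgax values was not tested.

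Itgb5 encodes a vitronectin receptor subunit that pairs with αv. In M1 it had 39.3, 38.6, 42.8, 31.5 and 35.2 CPM in the TRα1PV libraries and 36.1, 22.9, 22.0, 29.5 and 25.7 CPM in the WT libraries, higher in TRα1PV with 1 WT library inside its range (0.46 ± 0.12, adjusted p = 0.00611). In M0 its values overlapped, at 254, 266, 218, 210 and 276 CPM in the TRα1PV libraries and 272, 189, 238, 257 and 241 CPM in the WT libraries (0.03 ± 0.11, adjusted p = 0.868, and -0.04 without WT M0 replicate 2). Those of M2 did so too, at 131, 113, 117, 138 and 148 CPM in the TRα1PV libraries and 144, 137, 150, 122 and 150 CPM in the WT libraries (-0.12 ± 0.11, adjusted p = 0.498). The difference of the M1 from the M0 effect was 0.43 ± 0.16, adjusted p = 0.0508 (and 0.50 without WT M0 replicate 2). It passed with the replicate block (adjusted p = 0.0351), with RLE size factors, DESeq2 or limma-voom (adjusted p 0.0392 to 0.0482), and without any 1 of TRα1PV M0 replicates 2 and 5, TRα1PV M1 replicates 4 and 5, WT M0 replicate 2 and WT M1 replicate 1 (0.45 to 0.55, adjusted p 0.00756 to 0.0478). Itgb5 fell with M1 (-2.71 in TRα1PV and -3.13 in WT), and with M2 (-0.92 and -0.77).

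Itgb1 encodes β1, the partner of most α subunits above. In M1 it had 500, 579, 493, 599 and 682 CPM in the TRα1PV libraries and 624, 669, 811, 708 and 709 CPM in the WT libraries, and the groups overlapped (-0.30 ± 0.11, adjusted p = 0.0402). In M0 it stood at 538, 531, 604, 668 and 614 CPM in the TRα1PV libraries and 453, 697, 518, 437 and 578 CPM in the WT libraries, with overlap (0.14 ± 0.11, adjusted p = 0.346; 0.25, adjusted p = 0.0423, without WT M0 replicate 2, the highest of the 10). In M2 its means were 735 ± 29.5 CPM in TRα1PV and 642 ± 67.5 CPM in WT (SD, n = 5 each; 0.20 ± 0.11, adjusted p = 0.208, but adjusted p = 0.0432 in a fit of the compared groups alone). The M1 effect differed from the M0 effect (-0.44 ± 0.15, adjusted p = 0.0282, and -0.55 without WT M0 replicate 2). That call was lost without any 1 of TRα1PV M0 replicate 4, TRα1PV M1 replicates 1 and 3, WT M0 replicates 1 and 4 and WT M1 replicate 3 (-0.40 to -0.37, adjusted p 0.0614 to 0.0703), and in a fit of the compared groups alone (adjusted p = 0.0539). Against M0, Itgb1 was not called in TRα1PV M1 (-0.05 ± 0.11, adjusted p = 0.669, but 0.25 with adjusted p = 0.0335 under the covariate for reads outside genes) and rose in WT M1 (0.39 ± 0.11, adjusted p = 0.00127). With M2 it rose by 0.32 in TRα1PV and 0.26 in WT, the last lost without any 1 of WT M0 replicates 1, 3 and 4 and WT M2 replicates 2, 3 and 4 (0.19 to 0.26, adjusted p 0.0586 to 0.135) and in a fit of the compared groups alone (adjusted p = 0.0688).

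Of the immunoglobulin superfamily ligands, Icam1 was lower in TRα1PV macrophages in every state. ICAM-1 is the main counter-receptor of LFA-1 and is a known NF-κB and interferon target. In M0 Icam1 had 75.0, 81.5, 79.3, 74.4 and 64.9 CPM in the TRα1PV libraries and 113, 101, 108, 111 and 96.0 CPM in the WT libraries, with no overlap (-0.50 ± 0.11, adjusted p = 0.00129, and -0.51 without WT M0 replicate 2). In M1 it stood at 488, 376, 439, 401 and 565 CPM in the TRα1PV libraries and 483, 735, 598, 485 and 692 CPM in the WT libraries, and the groups overlapped (-0.40 ± 0.11, adjusted p = 0.00978). In M2 its values were 32.9, 39.9, 41.6, 36.4 and 35.4 CPM in the TRα1PV libraries and 63.5, 73.9, 73.0, 83.1 and 82.1 CPM in the WT libraries, and the highest TRα1PV library was well below the lowest WT library (-1.01 ± 0.11, adjusted p = 1.47e-07). The difference of the M2 from the M0 effect did not pass (-0.52 ± 0.16, adjusted p = 0.0837, and -0.49 without WT M0 replicate 2), but did with DESeq2 (adjusted p = 0.0434) and in a fit of the compared groups alone (adjusted p = 0.0115). Icam1 rose with M1 by 2.60 in TRα1PV and 2.50 in WT and fell with M2 (-1.01 and -0.49). It shares 511 of its 4360 exon bases with the antisense model Gm47079, which had 545 reads in all libraries against 206112 for Icam1.

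Promoter windows of 250 bases before to 50 bases after the annotated start, from RefSeq (GRCm38.p6), were given for 22 of the 33 genes (24 windows). They were searched on both strands for NF-κB-type letters (GGAANNTCC), for the STAT palindrome TTCNNNGAA, and for the same palindrome with 4 bases between TTC and GAA, the wider spacing that STAT6 is known to bind. The 3 windows shown are those of tested genes that held a match: Icam1, which rose with M1, Itgax, which rose with M2, and Cd44, which fell with M1 and rose with M2. Capitals mark matches to these 3 motifs, and each window reads 5′ to 3′ on the gene's strand.
Icam1 (chr9:21015690-21015989, plus strand): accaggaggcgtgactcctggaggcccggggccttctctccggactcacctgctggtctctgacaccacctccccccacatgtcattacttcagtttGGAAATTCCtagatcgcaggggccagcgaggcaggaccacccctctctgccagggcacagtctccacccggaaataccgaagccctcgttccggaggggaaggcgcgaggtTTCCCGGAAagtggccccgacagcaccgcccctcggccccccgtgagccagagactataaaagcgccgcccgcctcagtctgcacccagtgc
Itgax (chr7:128129300-128129599, plus strand): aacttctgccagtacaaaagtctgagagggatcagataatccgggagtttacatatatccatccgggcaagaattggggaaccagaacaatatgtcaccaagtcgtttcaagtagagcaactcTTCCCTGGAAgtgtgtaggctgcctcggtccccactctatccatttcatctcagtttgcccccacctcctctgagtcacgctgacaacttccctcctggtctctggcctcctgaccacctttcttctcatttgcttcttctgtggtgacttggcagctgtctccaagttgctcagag
Cd44 (chr2:102901616-102901915, minus strand): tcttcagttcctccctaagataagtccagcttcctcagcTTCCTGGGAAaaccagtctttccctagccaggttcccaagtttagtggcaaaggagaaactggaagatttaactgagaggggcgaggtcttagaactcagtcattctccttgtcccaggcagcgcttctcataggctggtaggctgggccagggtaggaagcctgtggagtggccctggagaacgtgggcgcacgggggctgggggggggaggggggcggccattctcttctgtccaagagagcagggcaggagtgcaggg
Of the 24 windows, only that of Icam1 held GGAANNTCC (starting at position -153 from the start site) and TTCNNNGAA (at -42), which 4.26% and 8.30% of all 32851 windows hold. The wider palindrome was in the windows of Itgax (at -127), Cd44 (at -211) and Itga3, and in 6.95% of all windows. The looser NF-κB letters, GGG and CC with 5 bases between, were in 14 of the 24 windows (13 of the 22 genes) and in 50.8% of all windows. The PU.1 core GAGGAA was in 11 of the 24 windows (11 of the 22 genes) and in 28.3% of all windows. A match is a description of the letters only.

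Icam2, a further LFA-1 ligand known mainly from endothelium and platelets, was lower in TRα1PV M0, at 3.83, 4.66, 3.09, 3.51 and 3.72 CPM in the TRα1PV libraries and 6.29, 3.98, 5.45, 7.06 and 5.68 CPM in the WT libraries. Only WT M0 replicate 2 was inside the TRα1PV range (-0.61 ± 0.13, adjusted p = 0.00110, and -0.71 without that library). In M2 it had 6.79, 5.22, 5.24, 5.12 and 7.05 CPM in the TRα1PV libraries and 9.66, 7.70, 8.15, 7.77 and 7.78 CPM in the WT libraries, with no overlap and with WT M2 replicate 1 above the other 4 (-0.48 ± 0.13, adjusted p = 0.0131). In M1 it stood at 2.36 to 2.90 CPM in TRα1PV and 2.72 to 3.96 CPM in WT (-0.30 ± 0.15, adjusted p = 0.144). Icam2 fell with M1 (-0.52 in TRα1PV and -0.82 in WT) and rose with M2 by 0.65 and 0.53. Vcam1, the ligand of α4β1, was called in no genotype comparison. In M1 it stood at 3.34, 4.13, 5.11, 3.06 and 7.38 CPM in the TRα1PV libraries and 5.36, 5.03, 5.38, 5.40 and 5.45 CPM in the WT libraries. In M0 it had 1.91, 2.31, 1.49, 1.53 and 1.25 CPM in the TRα1PV libraries and 1.42, 1.99, 1.77, 1.53 and 1.50 CPM in the WT libraries, below every M1 library, and in M2 it had at most 1.71 CPM in any library. It rose with M1 by 1.45 in TRα1PV and 1.69 in WT. Its M2 value in TRα1PV was -0.49 ± 0.22, adjusted p = 0.0595, and passed without TRα1PV M0 replicate 5 (-0.56, adjusted p = 0.0373) or TRα1PV M2 replicate 1 (-0.57, adjusted p = 0.0436), with DESeq2 (adjusted p = 0.0446) and in a fit of the compared groups alone (adjusted p = 0.0433).

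Pecam1 was higher in TRα1PV macrophages in all 3 states. PECAM-1 is a homophilic adhesion molecule of endothelium, platelets and leukocytes that acts in crossing of the vessel wall. In M0 Pecam1 had 6.82, 6.45, 5.32, 4.35 and 4.38 CPM in the TRα1PV libraries and 3.51, 3.60, 3.27, 3.32 and 1.99 CPM in the WT libraries (0.79 ± 0.15, adjusted p = 0.000250, and 0.84 without WT M0 replicate 2). In M1 it stood at 41.6, 34.9, 36.6, 36.2 and 35.0 CPM in the TRα1PV libraries and 29.8, 22.6, 23.3, 33.2 and 25.5 CPM in the WT libraries (0.46 ± 0.13, adjusted p = 0.0129). In M2 the values were 36.5, 31.3, 25.5, 26.9 and 25.9 CPM in the TRα1PV libraries and 23.3, 17.9, 18.2, 20.1 and 19.5 CPM in the WT libraries (0.56 ± 0.13, adjusted p = 0.00440). The genotypes overlapped in none of the states. Pecam1 rose with M1 by 2.76 in TRα1PV and 3.09 in WT, and with M2 by 2.42 and 2.65.

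Alcam, which binds CD6 and itself, was lower in TRα1PV M1, with 315 to 372 CPM in TRα1PV and 361 to 443 CPM in WT (-0.25 ± 0.08, adjusted p = 0.0263). It was not called in M0 (-0.11, and -0.07 without WT M0 replicate 2) or M2 (-0.18), and it rose with M1 (0.56 in TRα1PV and 0.71 in WT) and fell with M2 (-0.70 and -0.62). F11r encodes JAM-A, a junction protein that LFA-1 can bind, and no genotype comparison called it. Its largest change was the fall with M2, to 20 reads over the TRα1PV M2 libraries against 196 in M0 and 13 over the WT M2 libraries against 149 in M0 (-2.97 ± 0.30, adjusted p = 5.45e-10 in TRα1PV; -3.25 ± 0.33, adjusted p = 1.07e-09 in WT). With M1 it rose by 1.44 in TRα1PV and 1.36 in WT.

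Selp had the largest rise between genotypes among the 25. It encodes P-selectin, which is stored in platelets and endothelial cells and moves to their surface on activation. Selp shares 438 and 186 of its 4413 exon bases with the antisense models Gm16548 and Gm16587, which had 47 and 77 reads against 2298 for Selp. In M0 Selp had 5.63, 5.06, 3.51, 3.04 and 3.33 CPM in the TRα1PV libraries and 1.42, 1.91, 1.30, 0.686 and 0.644 CPM in the WT libraries. All TRα1PV libraries were above all WT libraries (1.78 ± 0.31, adjusted p = 7.13e-05, and 2.02 without WT M0 replicate 2), and so they were in M1, at 3.37, 3.81, 4.04, 1.40 and 2.13 CPM in the TRα1PV libraries and 1.09, 0.932, 1.06, 0.494 and 0.474 CPM in the WT libraries (1.85 ± 0.34, adjusted p = 0.000259). In M2 the genotypes overlapped, at 2.40, 2.02, 1.15, 1.00 and 1.78 CPM in the TRα1PV libraries and 1.88, 1.57, 0.786, 0.989 and 1.45 CPM in the WT libraries (0.30 ± 0.32, adjusted p = 0.558). The difference of the M2 from the M0 effect was -1.48 ± 0.44, adjusted p = 0.0758. It passed with the replicate block (adjusted p = 0.00294) and without WT M0 replicate 2 (-1.72, adjusted p = 0.0250) or TRα1PV M2 replicate 1 (-1.65, adjusted p = 0.0498), and with the covariate for reads outside genes (adjusted p = 0.0481) or DESeq2 (adjusted p = 0.0300). Against M0, Selp fell in TRα1PV M2 (-1.30 ± 0.30, adjusted p = 0.000387) and was not called in WT M2 (0.18 ± 0.33, adjusted p = 0.675). In M1 it was not called in TRα1PV (-0.48 ± 0.29, adjusted p = 0.129) or WT (-0.55 ± 0.36, adjusted p = 0.160), and with the replicate block it was called in both (adjusted p = 0.0157 in TRα1PV and 0.0405 in WT).

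Markers of platelets and endothelium moved with Selp, Pecam1 and Itga2b in part. The platelet and megakaryocyte list (4 of 10 tested) summed to 221 to 379 CPM in TRα1PV M0 and 156 to 218 in WT M0, to 62.2 to 96.6 and 51.8 to 68.9 in M1, and to 89.0 to 123 and 53.5 to 93.1 in M2. Nearly all of that was Pf4, which macrophages are also known to express, with means of 302 and 164 CPM in M0. Pf4 was called higher in TRα1PV in all 3 states, while Selp was called in M0 and M1 only and Itga2b in M1 only. Ppbp, which encodes a platelet chemokine, was called higher in TRα1PV M0, with 4.98 CPM in TRα1PV and 1.90 in WT, and had 0.724 and 0.391 CPM in M2, where it was not called. In M1 Ppbp had 0.0596 CPM in TRα1PV and 0.086 CPM in WT and was not called either. Treml1 (1.01 to 4.06 CPM in TRα1PV and 0.973 to 4.96 CPM in WT, over the 3 states) and Tubb1 were called in no state. Of the glycoproteins, Gp6 averaged 0.235 CPM in TRα1PV M1 and 0.423 in WT M1, Gp9, Gp1ba and Gp5 averaged at most 0.0564 CPM in any group, and Gp1bb had no read. The endothelial list (3 of 10 tested) summed to 9.76 to 18.3 CPM in TRα1PV M0 and 5.23 to 8.84 in WT M0, to 55.9 to 69.6 and 33.1 to 59.2 in M1, and to 202 to 261 and 139 to 190 in M2, mostly from Kdr in M0 and M1 and Flt1 in M2. Flt1 was called higher in TRα1PV in all 3 states and Kdr in M0 and M2. Cldn5 had no read in any group, and Cdh5 averaged at most 0.490 CPM and was called lower in TRα1PV M2. The part of these cells in the results was not tested.

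Cd44 and Selplg encode the hyaluronan receptor and the P-selectin ligand PSGL-1. In M1 Cd44 had 231, 210, 192, 243 and 224 CPM in the TRα1PV libraries and 205, 290, 308, 271 and 290 CPM in the WT libraries, lower in TRα1PV, with WT M1 replicate 1 inside the TRα1PV range (-0.31 ± 0.08, adjusted p = 0.00507). In M0 it stood at 442, 392, 437, 448 and 454 CPM in the TRα1PV libraries and 392, 430, 390, 373 and 415 CPM in the WT libraries, with overlap (0.12 ± 0.08, adjusted p = 0.255, and 0.15 without WT M0 replicate 2). In M2 the values overlapped as well, at 754, 744, 710, 781 and 690 CPM in the TRα1PV libraries and 680, 651, 674, 695 and 648 CPM in the WT libraries (0.14 ± 0.08, adjusted p = 0.232). The M1 effect differed from the M0 effect (-0.43 ± 0.11, adjusted p = 0.00508, and -0.46 without WT M0 replicate 2). Cd44 fell with M1 (-0.98 in TRα1PV and -0.55 in WT), and rose with M2 by 0.76 and 0.74. Selplg was higher in TRα1PV M1, at 284 to 365 CPM in TRα1PV and 227 to 311 CPM in WT (0.27 ± 0.09, adjusted p = 0.0271), and not called in M0 (-0.05, and -0.09 without WT M0 replicate 2) or M2 (-0.18, but adjusted p = 0.0236 in a fit of the compared groups alone). Its M1 effect less its M0 effect was 0.32 ± 0.12, adjusted p = 0.0531 (and 0.37 without WT M0 replicate 2), and passed with the replicate block (adjusted p = 0.0328), with DESeq2 (adjusted p = 0.0419) and without any 1 of TRα1PV M0 replicate 2, TRα1PV M1 replicates 2, 4 and 5, WT M0 replicates 2 and 5 and WT M1 replicate 1 (0.34 to 0.40, adjusted p 0.0141 to 0.0468). Selplg rose with M1 by 0.58 in TRα1PV and 0.26 in WT, the last lost without WT M1 replicate 1 (0.18, adjusted p = 0.0537), with the covariate (0.13, adjusted p = 0.159) and in a fit of the compared groups alone (adjusted p = 0.0781), and with M2 by 0.43 and 0.56.

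Polarization changed nearly all of the 25 genes, as it did most genes. With M1, 23 of 25 were called in TRα1PV (15 higher and 8 lower), beside 80.7% of all genes (40.0% higher and 40.7% lower). In WT it was 23 (15 higher and 8 lower), beside 79.6% (39.4% and 40.2%). With M2, 23 were called in TRα1PV (10 higher and 13 lower), beside 57.7% of all genes (28.3% and 29.4%), and 22 in WT (10 higher and 12 lower), beside 52.4% (25.2% and 27.2%). The median log2 fold change of the 25 in M1 was 0.58 in TRα1PV and 0.71 in WT, and in M2 -0.70 and -0.26, beside -0.02 over all genes in each comparison. In both genotypes, Itgb2, Itgb7, Itga1, Itgb8, Pecam1 and Selplg rose with M1 and with M2. Itgam, Itga4, Itga6, Itga8, Itga9 and Itgb5 fell with both. Itgal, Itgav, Itga2b, Icam1, F11r and Alcam rose with M1 and fell with M2, and Icam2 and Cd44 did the opposite. M1 and M2 are each set against the same M0 libraries. Without WT M0 replicate 2, the 23 M1 calls and the 22 M2 calls in WT were all made again, and the largest moves in log2 fold change were 0.79 for Itgb8, 0.25 for Selp and 0.22 for Itga4.

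**Figure D4:**
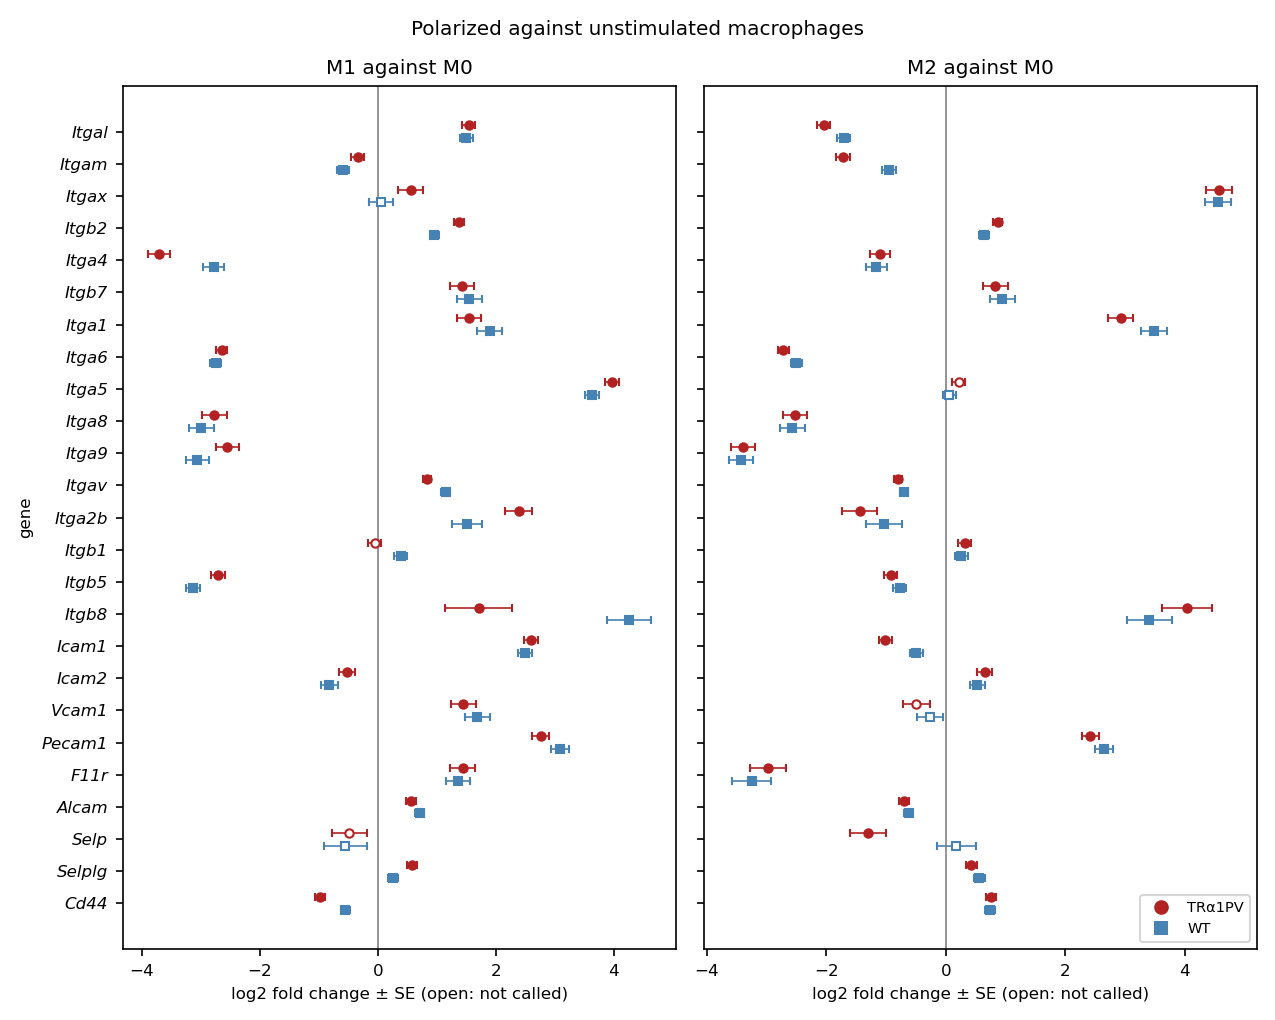
Log2 fold change (± SE) of M1 and of M2 against M0 for the 25 tested genes in TRα1PV (circles) and WT (squares), with open symbols for genes that were not called. In M1 Itga5 lies farthest right among the circles (3.97) and Itgb8 among the squares (4.26), and in M2 Itgax lies farthest right in both genotypes (4.57 in TRα1PV and 4.56 in WT).

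The genotype effect in M1 differed from that in M0 for 6 of the 25 genes, 1 upward (Itgb2) and 5 downward (Itga4, Itgav, Itgb1, Itgb8 and Cd44), where 26.6% of all genes were called (13.3% in each direction). For the downward genes, the M0 log2 fold changes were not called with all libraries and the M1 ones were negative. The effect in M2 differed from that in M0 for 1 gene, Itgam, where 2.16% of all genes were called (0.701% upward and 1.46% downward). Both sets of differences use the same M0 groups. Without WT M0 replicate 2 the counts were 10 for M1 and 2 for M2, which included the 6 and the 1, and without TRα1PV M2 replicate 1 the M2 count was 2. Over all genes the calls rose too without WT M0 replicate 2, from 4175 to 6000 for M1 and from 339 to 533 for M2.

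Genes that act with integrins were counted from lists of general knowledge, beside the 26.0%, 20.0% and 13.1% of all genes called between genotypes in M0, M1 and M2. The lists were also counted in M0 without WT M0 replicate 2, a setting added for them after the data were seen. In that setting 6131 of the 15686 tested genes were called in M0, against 4072 with all libraries. The 26.0% is therefore not the share to set beside the list counts without that library. Of the integrin activation and adhesion complex list, which holds talins, kindlins, vinculin and the kinases of adhesion sites, 37 of 40 were tested. In M0, 3 were higher and 12 lower in TRα1PV (median log2 fold change -0.07, against -0.01 over all genes), in M1 4 were higher and 4 lower (0.03 against 0.00), and in M2 2 were higher and 7 lower (-0.11 against -0.01). That is a share of 40.5% in M0, 21.6% in M1, near that of all genes, and 24.3% in M2. Without WT M0 replicate 2, 6 were higher and 15 lower in M0, with 14 of the 15 calls made again (median -0.11). Parvb, a parvin of the kinase-linked adhesion complex, was lower in each state, at means of 49.6 CPM in TRα1PV and 80.6 CPM in WT at M0 (-0.70 ± 0.07, adjusted p = 3.13e-08, and -0.76 without that library), 50.5 and 63.9 CPM in M1 (-0.34 ± 0.07, adjusted p = 0.00171), and 51.7 and 76.5 CPM in M2 (-0.57 ± 0.07, adjusted p = 3.12e-06). In M0 the actin crosslinker Actn1 (93.6 CPM in TRα1PV and 133 in WT; -0.50 ± 0.09, adjusted p = 0.000227, and -0.56 without that library) and the exchange factor Cyth1 (93.9 and 126 CPM; -0.42 ± 0.07, adjusted p = 6.43e-05, and -0.49 without that library) were lower too. In M1 the focal adhesion kinase gene Ptk2 was lower (-0.41 ± 0.08, adjusted p = 0.000579), with 29.0 CPM in TRα1PV and 38.6 in WT, and its relative Ptk2b was higher (0.30 ± 0.06, adjusted p = 0.00133), with 1050 and 851 CPM. In M2 Tln2, the less abundant talin of leukocytes, was higher, with 3.26 CPM in TRα1PV and 0.956 in WT (1.75 ± 0.26, adjusted p = 3.03e-05), and vinculin, Vcl, was lower, with 22.3 and 28.0 CPM (-0.33 ± 0.08, adjusted p = 0.00542).

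Of the 17 tetraspanins and other integrin partners, all tested, 2 were higher and 5 lower in TRα1PV M0 (median -0.18), 4 higher and 2 lower in M1 (0.09), and 0 higher and 2 lower in M2 (0.00), or 41.2%, 35.3% and 11.8% of the list. Without WT M0 replicate 2, 3 were higher and 11 lower in M0, among them all 7 (median -0.28). Cd151, the tetraspanin that binds laminin-type integrins, was lower in M0 (-0.37 ± 0.07, adjusted p = 0.000224, and -0.40 without that library) and M2 (-0.27 ± 0.07, adjusted p = 0.00867) and higher in M1 (0.30 ± 0.07, adjusted p = 0.00212). Cd37, a leukocyte tetraspanin, was lower in M0 (95.2 CPM in TRα1PV and 128 in WT; -0.43 ± 0.09, adjusted p = 0.000821, and -0.51 without that library) and in M2 (36.1 and 56.2 CPM; -0.64 ± 0.09, adjusted p = 1.84e-05). In M1 Sirpa, the receptor of CD47, was higher (1360 CPM in TRα1PV and 1070 in WT; 0.34 ± 0.07, adjusted p = 0.000527).

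Of the matrix ligands of integrins, 20 of 25 were tested. In M0, 1 was higher and 12 lower in TRα1PV (median -0.42), in M1 4 higher and 5 lower (0.03), and in M2 1 higher and 7 lower (-0.24), or 65.0%, 45.0% and 40.0% of those tested. Without WT M0 replicate 2, 1 was higher and 14 lower in M0, among them all 13 (median -0.52). The M0 falls included the tenascin gene Tnc, an α9 ligand, with means of 0.0755 CPM in TRα1PV and 1.70 CPM in WT (-4.62 ± 0.56, adjusted p = 3.5e-07, and -4.43 without that library), the collagen IV gene Col4a1 (0.266 and 1.68 CPM; -2.66 ± 0.37, adjusted p = 2.86e-06, and -2.64 without that library) and the nidogen gene Nid1 (0.0547 and 0.589 CPM; -3.41 ± 0.40, adjusted p = 2.05e-07, and -3.32 without that library). In M1 thrombospondin-1, Thbs1, was lower, with 864 CPM in TRα1PV and 1850 in WT (-1.10 ± 0.18, adjusted p = 6.23e-05), as was Edil3, an αv ligand (8.05 and 22.1 CPM; -1.46 ± 0.20, adjusted p = 6.7e-06). In M2 Col4a1 (0.103 CPM in TRα1PV and 0.586 in WT; -2.44 ± 0.48, adjusted p = 0.000749) and Tnc (0.0949 and 0.755 CPM; -2.91 ± 0.59, adjusted p = 0.00106) were lower again. Fibroblast and stromal markers, 10 of 12 tested, moved with the matrix genes. They summed to 2.54 to 4.06 CPM in TRα1PV M0 and 7.93 to 27.8 in WT M0, to 2.19 to 3.58 and 4.99 to 7.01 in M1, and to 4.83 to 7.60 and 6.37 to 18.7 in M2, and WT M0 without replicate 2 to 7.93 to 25.4. Of the 10, 9 were called lower in TRα1PV M0 and 5 in M1. In M2, 6 were called lower, among them Col1a1 (0.170 CPM in TRα1PV and 1.45 in WT) and Sparc (0.108 and 1.39 CPM), while Postn was called higher (4.10 and 1.97 CPM). The part of these cells in the values was not tested.

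Of the other leukocyte adhesion molecules, 25 of 32 were tested. In M0, 6 were higher and 2 lower in TRα1PV (median -0.14), in M1 5 higher and 2 lower (-0.01), and in M2 3 higher and 4 lower (-0.08), or 32.0%, 28.0% and 28.0% of those tested. Without WT M0 replicate 2, 5 were higher and 4 lower in M0, with 7 of the 8 calls made again (median -0.14). Of the 15686 tested genes, the count called in M0 rose from 4072 to 6131 in that setting. The share of this list called was then below that of all genes, while the shares of the other lists were above it. The immunoglobulin-type adhesion gene Cadm1 was higher in each state (0.49 ± 0.09, adjusted p = 0.000256, and 0.54 without that library in M0; 0.43 ± 0.09, adjusted p = 0.00132 in M1; 0.79 ± 0.09, adjusted p = 4.21e-07 in M2). The syndecan gene Sdc1 was lower in M0 (8.85 CPM in TRα1PV and 28.8 in WT; -1.70 ± 0.19, adjusted p = 9.59e-08, and -1.81 without that library) and in M2 (13.8 and 44.4 CPM; -1.68 ± 0.19, adjusted p = 1.88e-07). Nectin2, a nectin of cell junctions, was higher in M1 (52.7 and 32.5 CPM; 0.70 ± 0.09, adjusted p = 1.61e-06). Lists of mast cell and basophil, B cell and epithelial markers summed to at most 2.80, 8.13 and 5.58 CPM in any library, and that of T and NK cells to at most 16.4, most of it Cd4, which macrophages can express. Of their tested markers, Kit was called higher in TRα1PV M0 (1.62, adjusted p = 0.000285). Cd79b was called higher in M0 (0.51) and M1 (1.02), and Cd4 in M1 (0.93) and M2 (0.89). Lck and Cdh1 were called in no state. The part of these cells in the values was not tested.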

How the data were processed

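The deposited files hold read counts per gene for each of the 30 libraries, and the authors did not normalize them. The submitters' processing notes name Trimmomatic 0.39, HISAT2 2.2.1, Cufflinks, HTSeq 1.99.2, FastQC 0.11.9, edgeR, limma, R 4.3.2 and the build GRCm39, with no role or order. Not given in the sources used here are the strand setting and annotation release. Libraries were grouped by the labels. Genes were kept by edgeR's filterByExpr (minimum count 10, minimum total 15; 15686 genes), scaled by TMM, and fitted in 1 quasi-likelihood model with a mean per group (edgeR 4.0.16, R 4.3.3, 24 residual degrees of freedom, 5 libraries per group); SE comes from the log2 fold change and its F statistic. The model was tested on simulated data. Exon lengths and shared exon bases come from a GRCm38 annotation and were used for per-kilobase levels and neighbours only. Alternatives used DESeq2 1.42.0, limma-voom 3.58.1 and the other settings of the closing section. Values per library are given for the members with the smallest p-values between genotypes, the largest rises and falls with polarization, or a called difference, and other members by range and count; up to 3 called genes were named per list of adhesion genes, and 1 gene that the rule names is not reported here. The members and lists were chosen with earlier results of these data known. The labels give the replicate number under a batch tag. Same-numbered libraries of the genotypes correlated in their deviations from the group means by -0.374 to 0.259 for M0, by -0.17 to 0.17 for M1 and by -0.0229 to 0.212 for M2, and those of polarized and M0 libraries by -0.24 to 0.331. For TRα1PV M2 with TRα1PV M0 the mean was 0.184 for the same number and -0.0459 for other numbers. There 4 of the 5 M2 libraries correlated best with the M0 library of their own number, against 1 to 3 in the other pairs of groups. No replicate pair was near identical (60 pairs; chi-square of 6.28 to 200 per degree of freedom).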

Additional observations from a re-analysis of the deposited data

Results flagged for a closer look

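In 10 of 150 combinations of a gene and a group, the highest or lowest library stood apart from the other 4 by more than 0.71 of the group's range, which chance gives in about 1 of 20 groups. The low ones were Itgal at 112 CPM in WT M0 replicate 2, Pecam1 at 1.99 CPM in WT M0 replicate 5, Vcam1 at 5.03 CPM in WT M1 replicate 2 and Cd44 at 392 CPM in TRα1PV M0 replicate 2. The high ones were Itgax at 245 CPM in TRα1PV M2 replicate 1 and at 27.9 CPM in WT M0 replicate 1, Pecam1 at 41.6 CPM in TRα1PV M1 replicate 1, Itga4 at 392 CPM in WT M2 replicate 4, Itgb8 at 0.306 CPM in WT M0 replicate 2 and Icam2 at 9.66 CPM in WT M2 replicate 1. Of the 10, 2 were in WT M0 replicate 2.

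For 7 genes the genotype effect differed between states by the edgeR test of the difference itself. Calls for M1 against M0 took in 24.0% of the 25, beside 26.6% of all genes, and those for M2 4.00%, beside 2.16%. Relative to M0, the M1 effect was more positive for Itgb2 (0.42 on the log2 scale) and more negative for Itga4 (-0.93), Itgav (-0.33), Itgb1 (-0.44), Itgb8 (-2.55) and Cd44 (-0.43), and the M2 effect was more negative for Itgam (-0.77).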

How the results depend on the processing

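Of 134 called results of the 25 genes, 117 stayed called in the same direction under each alternative, and of 91 that were not called, 73 passed under none. Among results called in the main fit or under the alternative, 2 log2 fold changes turned, both with the share outside genes as a covariate, Itgax in TRα1PV M1 against M0 (-0.03, with 0.56 in the main fit) and Itgb1 in the same comparison (0.25, with -0.05). Of the 91 results that were not called, 29 changed sign under at least 1 alternative, with main log2 fold changes of at most 0.63 in size, among them Itgam (-0.11) and Selplg (-0.05) in M0, Itga5 in TRα1PV M2 against M0 (0.22) and the M2 minus M0 difference of Itgb8 (0.63). Over all genes, the count called in M0 was 2483 with only the compared groups and 6415 without both M0 libraries numbered 2 (main fit 4072). In M1 it was 5467 with the covariate (3132), and in M2 it was 3975 with only the compared groups (2055). For the M1 minus M0 difference, leaving out both libraries numbered 2 gave 6329 genes (4175) and 11 of the 25 (6). The genes added there were Icam2, Itga2b, Itga5, Itgb5 and Selplg. For the M2 minus M0 difference, DESeq2 gave 529 genes and the covariate 579 (339), with 3 of the 25 by DESeq2 and 2 with only the compared groups, the replicate block, the covariate or without both libraries numbered 2 (1). The replicate block changed no call of the 25 other than those given above.

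Leaving out 1 library at a time gave 2940 to 6131 genes and 11 to 13 of the 25 in M0, 2183 to 3534 and 10 to 15 in M1, and 1275 to 2723 and 6 to 10 in M2. For M1 against M0 it gave 12430 to 12517 genes and 22 to 23 of the 25 in TRα1PV, and 12207 to 12573 and 22 to 23 in WT. For M2 against M0 it gave 8581 to 8846 and 23 to 24 in TRα1PV, and 7659 to 8450 and 21 to 22 in WT. The differences ranged from 3168 to 6000 genes and 4 to 10 of the 25 for M1, and from 253 to 533 and 1 to 2 for M2. The low counts of Itgb8 in M0 and of F11r in M2 limit their fold changes, and the causes of these moves were not tested.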
